A study of Macaca fascicularis with 12 samples.

Results

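Iliac arteries of 5 female cynomolgus monkeys (Macaca fascicularis) with medium atherosclerotic plaques were compared with those of 4 animals with small plaques, from a series of 12 animals. The 9 animals were chosen by the plaque size in the sample title, and every probe of the array was tested. Medium plaques measured 0.448, 0.30, 0.391, 0.542 and 0.516 mm2 in replicates 1 to 5. Small replicate 1 had a plaque of 0.113 mm2, small replicate 3 one of 0.041 mm2, and small replicates 2 and 4 had none. Animals of every group were over 20 years old, had eaten a high fat diet for 8 years, had been without ovaries for 4 years and had received no other treatment, so no group stands for a healthy or a premenopausal artery. The 3 animals with large plaques (1.003, 0.61 and 0.873 mm2) entered the same fit, and their values are set beside the others only where they add to a result. Each animal gave 1 artery and 1 array, so replicates are separate animals.

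The wall of a muscular artery is built mainly of smooth muscle cells, which contract through myosin and actin, are steered by ion channels and receptors for vasoactive hormones, and lay down collagen and elastic fibres. An atherosclerotic plaque grows in the inner layer as lipoproteins are retained and blood monocytes enter, become macrophages and take up lipid as foam cells. Smooth muscle cells in plaques are known to lose contractile proteins, to move and to divide.

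Whole artery tissue was measured, so fewer cells of a type and less RNA per cell cannot be told apart. Human probes were hybridised with monkey RNA, and a mismatch can dim a probe, so values are compared only between animals for the same probe. Values are deposited intensities, scaled so that each array's median lay near 1, and values under 0.111 entered the fit at 0.111. Differences are log2 intensity in medium minus small with the standard error (SE) of the limma fit (n = 5 and 4), on which 1 unit is 2-fold. A gene is called where its limma p adjusted over all 53877 probes is under 0.05. Smooth muscle genes, the defining genes of the labelled tissue, were bright, and the small arteries gave 527 to 771 for smooth muscle myosin heavy chain (MYH11) and 257 to 667 for smooth muscle actin (ACTA2). Small replicate 4 and medium replicate 5 carry identity numbers far from those of the other animals, and a list's count without both is given where it changed. The number of arrays limits the precision.

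Macrophage and foam cell markers were far brighter in medium plaque arteries, and some genes of lysosomes, signalling, metabolism and cell division were also called higher, while some genes of channels, collagens, hormone receptors and contraction were called lower. Of the probes, 1062 were called higher (1.97%) and 631 lower (1.17%), and without both animals of distant identity number 605 and 168 were. Leaving out small replicate 2 alone gave 599 higher and 248 lower. The count of lower probes was also over 1.5 times smaller without medium replicate 1 (238), medium replicate 4 (246), medium replicate 5 (261) or small replicate 1 (412). With 1 probe per gene, the brightest, 651 of 18080 genes were called higher (3.6%) and 290 lower (1.6%), and the median difference over all genes was -0.03. Of the 651, 37 belonged to the macrophage, foam cell and MHC class II lists, and of the 290 none did. These lists are short, and the 37 were 13 of 23, 18 of 27 and 6 of 15 measured members. The rises were larger, with 245 over 4-fold and a median size of 1.74 log2 units, against 22 over 4-fold and a median of 1.22 among the falls. Groups of genes were taken from 49 lists, and a list's count is to be read against 3.6% higher and 1.6% lower over all genes. Where a count at an unadjusted limma p under 0.05 is given, 9885 of all 53877 probes passed that threshold, in either direction. Such counts are to be read against that number.

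**Figure D1:**
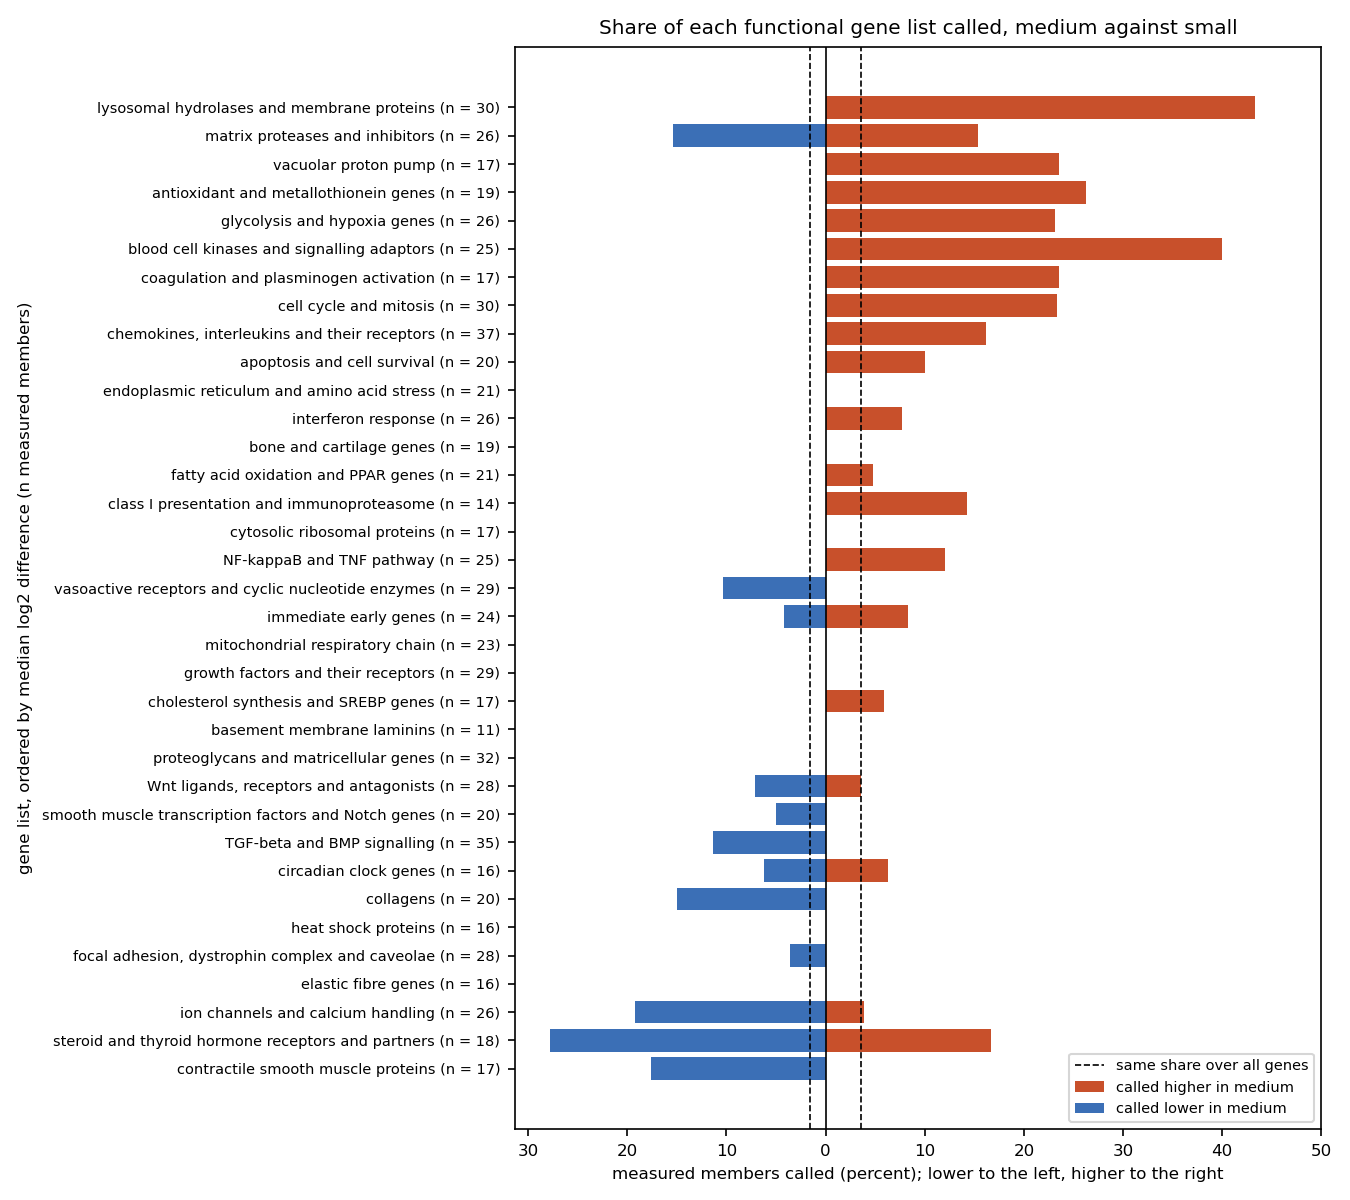
Percent of the measured members of 35 functional gene lists that were called higher (right, red) or lower (left, blue) in medium than in small plaque arteries, ordered by the list's median log2 difference; dashed lines mark the shares over all genes, 3.6% and 1.6%. Lysosomal genes have the longest bar to the right (13 of 30) and hormone receptors the longest to the left (5 of 18).

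Macrophage and foam cell genes are given here only as a measure to set beside the rises below. Of 23 measured macrophage markers 13 were called higher and none lower, and of 27 foam cell genes 18 were, against 11 and 13 without both animals of distant identity number. The summed intensity of the macrophage list was 87.4 to 172 in small, 412 to 828 in medium and 426 to 679 in large plaque arteries. Its part in the rises of the other groups was not tested. LYZ, the lysozyme of phagocytes, measured 6.43, 2.91, 1.93 and 11.9 in small and 248, 66.6, 54.9, 76.9 and 78.2 in medium plaque arteries. Medium replicate 1, with a plaque of 0.448 mm2, was far above the rest. CD163, a haemoglobin scavenger receptor, rose by 2.68 ± 0.36. CD68, a glycoprotein of macrophage lysosomes, differed by -0.44 ± 0.45 (limma adjusted p 0.648) and its groups overlapped.

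The largest rise outside the macrophage, foam cell and class II lists was that of MLPH, melanophilin, an adaptor that ties Rab27 organelles to myosin. Its intensities were 2.67, 1.65, 1.16 and 2.2 in small replicates 1 to 4, 77.5, 25.8, 64.7, 73.9 and 57.9 in medium replicates 1 to 5 and 78.4, 32.5 and 76.3 in large replicates 1 to 3. Medium replicate 2, the animal with the smallest plaque of its group, was lowest of the medium arteries and still far above every small one. The difference was 4.94 ± 0.38 (limma adjusted p 0.000128), whereas a dimmer probe of MLPH gave 0.11 and was not called. CRABP2, a carrier of retinoic acid, measured 1.69, 1.79, 1.26 and 1.63 in small and 42.5, 9.05, 47.7, 147 and 28 in medium plaque arteries. All small arteries were alike in CRABP2 while the medium ones spread widely, and it rose by 4.57 ± 0.62 (limma adjusted p 0.00262). SULT1C2, a cytosolic sulfotransferase, measured 0.41, 0.233, 0.218 and 0.311 against 5.44, 2.82, 6.15, 19.6 and 1.9 and rose by 4.17 ± 0.64, with a dimmer probe at 1.05 that was not called. Medium replicate 4, with the largest plaque of its group, was highest of all 12 animals for both CRABP2 and SULT1C2.

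**Figure D2:**
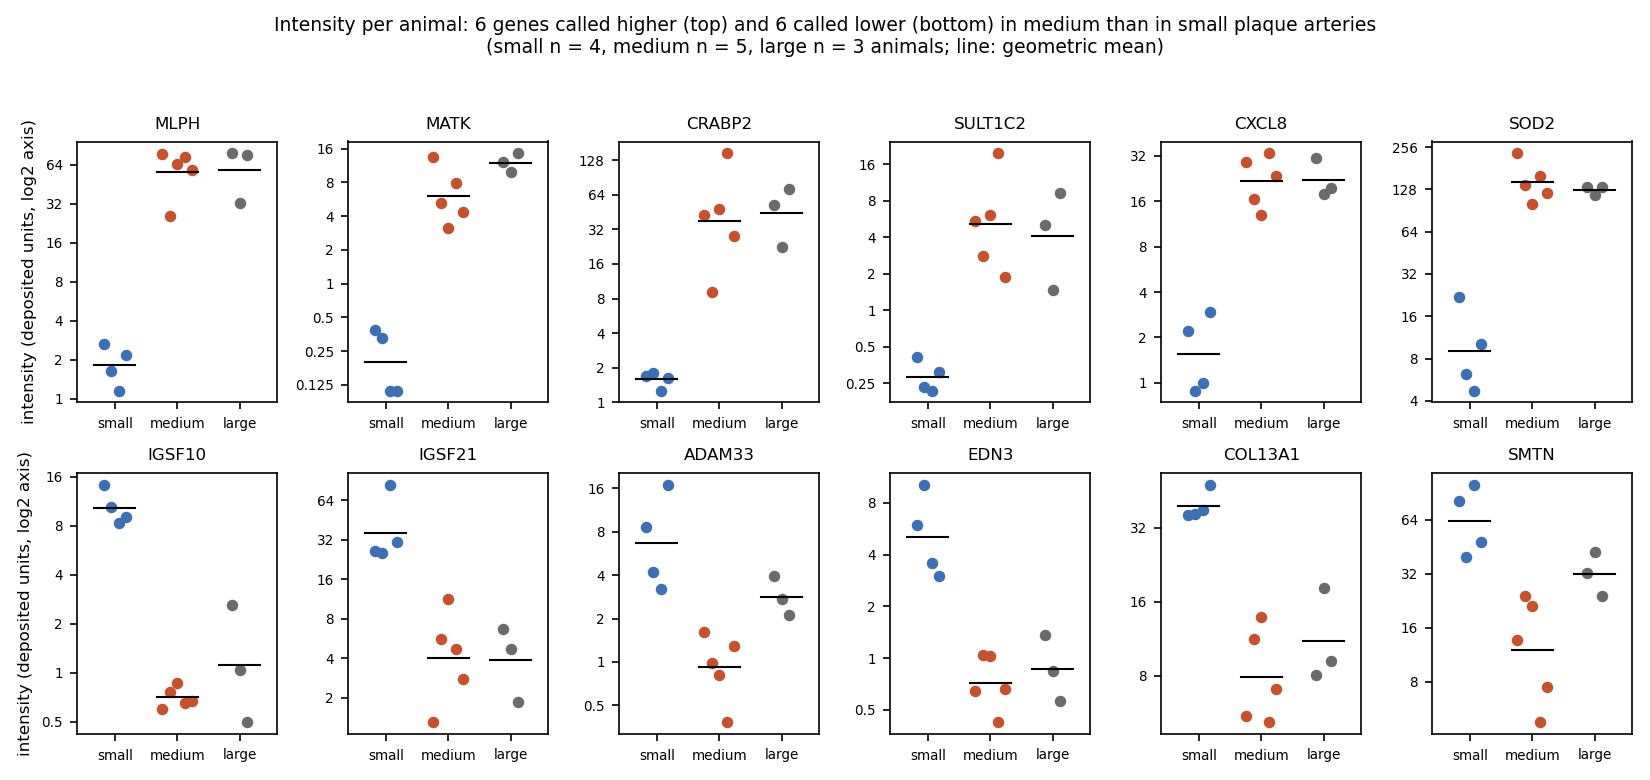
Intensity (log2 axis, deposited units, values under 0.111 drawn at 0.111) of 12 genes in each animal of the small (blue), medium (red) and large (grey) groups, with lines at the geometric means. In every panel the 5 medium points lie apart from the 4 small points, above them in the top row and below them in the bottom row.

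ADAMDEC1, a secreted metalloprotease-like protein of macrophages and dendritic cells, measured 0.872, 0.792, 0.792 and 1.86 in small and 87.5, 38.8, 36.7, 35.3 and 4.69 in medium plaque arteries. Medium replicate 5, with the second largest plaque of its group, was much lower than the other medium animals, yet above all small ones. The rise of ADAMDEC1 was 4.85 ± 0.67 (limma adjusted p 0.00287). Tyrosine kinases and adaptors of blood cells formed the largest block of rises in signalling, with 10 of 25 measured members called higher, none lower and a median of 0.54. MATK, a kinase that phosphorylates the inhibitory tyrosine of Src family kinases, measured 0.389, 0.33, 0.0986 and 0.0538 against 13.5, 5.28, 3.16, 7.93 and 4.35. Small replicates 3 and 4 lay under the floor of 0.111, so the MATK difference of 4.91 ± 0.47 is understated. FGR, a Src family kinase of myeloid cells, rose by 4.01 ± 0.36. DOCK2, an activator of the GTPase Rac in leukocytes, rose by 3.02 ± 0.28, and PTPN6, a phosphatase that damps immune receptors, by 2.84 ± 0.28. In each of these 4 genes the groups did not overlap, as in 6.41% of all genes in this direction. A dimmer DOCK2 probe gave 0.73 with overlapping groups and was not called. Without both animals of distant identity number 7 of the 25 were called.

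The largest fall was that of IGSF10, a secreted protein with immunoglobulin domains. IGSF10 measured 14.2, 10.4, 8.31 and 9.05 in small, 0.6, 0.764, 0.862, 0.654 and 0.673 in medium and 2.62, 1.05 and 0.498 in large plaque arteries. The 5 medium values lay close together and far under the lowest small value, and IGSF10 fell by 3.86 ± 0.37 log2 units (limma adjusted p 0.000387). In 4.73% of all genes the medium animals all lay below the small ones. IGSF21, an immunoglobulin domain protein known from synapses, measured 26, 25.2, 83.5 and 31 against 1.31, 5.62, 11.4, 4.69 and 2.79 and fell by 3.16 ± 0.60, with small replicate 3 far above the other small animals (0.070 without both animals of distant identity number). ADAM33, a membrane metalloprotease known from smooth muscle and fibroblasts, measured 8.67, 4.22, 3.2 and 16.9 against 1.62, 0.979, 0.817, 0.383 and 1.29. Its small values spread widely but did not reach down to the medium ones, and it fell by 2.86 ± 0.50 (limma adjusted p 0.011). COPG2IT1, an imprinted noncoding transcript, fell by 3.07 ± 0.62, a call that was lost without small replicates 2 or 4 or medium replicate 1 (adjusted p 0.054 to 0.056) or both animals of distant identity number (0.097).

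Further falls were those of ACACB, the acetyl-CoA carboxylase at mitochondria whose product holds back fatty acid oxidation, of CHODL, a membrane lectin, and of ITM2A, a membrane protein. ACACB measured 37.2, 32.3, 23.2 and 34.3 in small and 4.04, 9.39, 6.05, 4.19 and 8.1 in medium plaque arteries and fell by 2.38 ± 0.31, although 3 dimmer ACACB probes were not called (-0.04, -0.65 and -0.90). CHODL fell by 2.38 ± 0.41, with 4.42, 4.91, 3.44 and 3.37 against 0.296, 0.747, 1.46, 0.746 and 1.09. ITM2A measured 88.1, 70.9, 55.7 and 70.0 against 13.4, 37.3, 21.8, 6.26 and 6.28 and fell by 2.39 ± 0.47 (limma adjusted p 0.0184), but its call was lost without small replicate 2 (0.051) or both animals of distant identity number (0.072). Medium replicates 4 and 5 gave the lowest ITM2A values of all 12 animals.

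Of 17 measured proteins of the contractile apparatus 3 were called lower in medium plaque arteries and none higher, with a median of -1.02, and 16 of the 17 differences were negative. MYLK, the myosin light chain kinase that triggers contraction, measured 448, 390.4, 460.5 and 410.5 in small, 99.4, 229, 213, 93.3 and 119 in medium and 155, 169 and 135 in large plaque arteries. All medium values were below all small ones, with medium replicates 2 and 3 nearest to them, and MYLK fell by 1.61 ± 0.27 (limma adjusted p 0.009). SMTN, smoothelin, a cytoskeletal protein of contractile smooth muscle, measured 81.7, 39.5, 101 and 48.2 against 13.6, 24.2, 21.2, 4.75 and 7.41 and fell by 2.39 ± 0.47. PPP1R14A, an inhibitor of myosin phosphatase, measured 4.45, 2.79, 6.15 and 3.97 against 1.84, 2.8, 2.4, 1.45 and 1.95 and fell by 1.03 ± 0.25 (limma adjusted p 0.0446), with its groups overlapping. MYH11 gave 771, 565, 606 and 527 against 287, 430.1, 475, 373 and 380.0, groups that did not overlap, yet its difference of -0.67 ± 0.18 was not called (limma adjusted p 0.0657). ACTA2 overlapped, with 667, 394, 546 and 257 against 218, 372, 396, 172 and 359 and a difference of -0.61 ± 0.37 (limma adjusted p 0.418).

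The contractile calls differed in how far they depended on the animals used. MYLK and SMTN kept their calls without each animal in turn. Without both animals of distant identity number none of the 17 was called (adjusted p 0.051 for MYLK and 0.066 for SMTN), and without medium replicate 2 there were 5. The PPP1R14A call was lost when any animal but small replicate 2 or medium replicate 2 was left out (adjusted p 0.057 to 0.10). Dimmer probes of MYLK (0.28) and SMTN (0.00) did not follow the brighter ones. LMOD1, leiomodin of smooth muscle thin filaments, was chosen after its values were seen, with 233, 164, 265 and 153 against 45.9, 132, 127, 49.4 and 69.1, a difference of -1.37 ± 0.34 and a limma adjusted p of 0.0518. It was called without medium replicate 2 (0.030) or medium replicate 3 (0.035), but stayed uncalled in 20 of 25 alternative settings.

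Regulators and anchors of smooth muscle held 1 call in each list. Of 20 measured transcription factors and Notch genes 1 was called lower, CSRP2, a LIM protein of smooth muscle nuclei and cytoskeleton. CSRP2 measured 186, 143, 157 and 180.2 against 42.9, 101, 85.9, 41.3 and 79.4 and fell by 1.34 ± 0.32 (limma adjusted p 0.0448), a call lost without any animal except medium replicate 2 (0.051 to 0.10) and without both animals of distant identity number (0.12). SRF, the serum response factor that drives contractile genes, differed by -0.46 ± 0.27 with an adjusted p of 0.401. Among 28 genes of focal adhesions, the dystrophin complex and caveolae only ITGA7, the laminin-binding integrin of muscle, was called. ITGA7 measured 79.5, 47.2, 94.1 and 59.9 against 14.4, 33.8, 28.6, 11.2 and 18.9 and fell by 1.78 ± 0.33, although without both animals of distant identity number its adjusted p was 0.059.

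Potassium channels and calcium handling genes were called lower in 5 of 26 cases and higher in 1, with a median of -0.53. KCNA5, a voltage-gated potassium channel that sets resting tone in arteries, measured 60.1, 83.8, 104 and 91.7 in small and 10.8, 30.2, 37.3, 18.8 and 28.8 in medium plaque arteries, fell by 1.85 ± 0.32 (limma adjusted p 0.0107) and kept its call without each animal in turn. KCNB2, another voltage-gated potassium channel, measured 11.5, 8.8, 33.8 and 15.1 against 1.24, 1.42, 4.63, 2.49 and 4.38, with small replicate 3 highest, and fell by 2.62 ± 0.54. KCNMA1, the pore of the large-conductance calcium-activated potassium channel, fell by 1.14 ± 0.24 on its brightest probe. A second KCNMA1 probe fell by 2.37 ± 0.42, while 3 others were not called (0.07, -0.79 and -0.82). STIM1, the calcium sensor of the endoplasmic reticulum, measured 40.0, 35.4, 47.5 and 27.2 against 16.1, 18, 24.5, 20.0 and 20.8 and fell by 0.90 ± 0.19. Other STIM1 probes gave -0.26 and -0.72 and were not called. Chosen after their values were seen, KCNAB1, a beta subunit of voltage-gated potassium channels, fell by 0.75 ± 0.18, and ATP2B4, a calcium pump of the cell membrane, rose by 1.22 ± 0.27. The KCNAB1 call was lost without any animal except medium replicate 3 (0.052 to 0.11), and that of ATP2B4 without any except medium replicate 2 or small replicate 4 (0.050 to 0.076), and neither was called without both animals of distant identity number (0.16 and 0.052). The number of channel genes called lower fell to 2 without both animals of distant identity number, to 2 without medium replicate 1 or small replicate 2, to 1 without medium replicate 4, and to 3 without medium replicate 5 or small replicate 1. The KCNB2 call was lost without small replicate 3 or medium replicates 1 or 4 (adjusted p 0.052 to 0.056), and the KCNMA1 and STIM1 calls without small replicates 1 or 2 or medium replicate 4, with medium replicate 5 for KCNMA1 and medium replicate 1 for STIM1 (0.051 to 0.074).

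Genes of the vasoactive peptides and their receptors were called lower in 3 of 29 cases and higher in none, with a median of -0.03, the same as over all genes. EDN3, the peptide endothelin 3, measured 5.98, 10.2, 3.59 and 3 in small, 0.644, 1.04, 1.03, 0.425 and 0.657 in medium and 1.36, 0.847 and 0.562 in large plaque arteries. No medium value came near the lowest small one, and EDN3 fell by 2.81 ± 0.40 (limma adjusted p 0.00312) on its brighter probe and by 1.90 ± 0.34 on the other. AGTR1, the angiotensin receptor that mediates constriction, measured 7.14, 7.73, 3.79 and 12.1 against 2.1, 2.62, 2.62, 1.89 and 1.82 and fell by 1.70 ± 0.29. TBXA2R, the thromboxane receptor, fell by 1.46 ± 0.33 (limma adjusted p 0.0344), but its call was lost without any animal except medium replicate 3 (0.053 to 0.083), and the list held 2 calls without both animals of distant identity number.

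Of 20 measured collagen genes 3 were called lower and none higher, with a median of -0.27, and 2 were called lower without both animals of distant identity number. COL13A1, a transmembrane collagen of cell junctions, measured 36.1, 36.5, 38.1 and 48 in small and 5.46, 11.3, 13.9, 5.17 and 7.06 in medium plaque arteries and fell by 2.31 ± 0.33 (limma adjusted p 0.00323). COL27A1, a fibrillar collagen of cartilage, measured 73.7, 72.3, 116 and 54.6 against 13.6, 18.9, 29.9, 15 and 16.3 and fell by 2.08 ± 0.31, while its other 2 probes gave 0.20 and 0.26. COL4A6, a basement membrane collagen of smooth muscle, measured 27.7, 27.6, 27.1 and 40.4 against 3.62, 18.5, 10.3, 4.21 and 1.69, with medium replicate 2 nearest to the small animals. Both COL4A6 probes were called, at -2.46 ± 0.55 and -2.32 ± 0.46, but the brighter one lost its call without small replicates 1, 2, 3 or 4 or medium replicates 1 or 4 (adjusted p 0.060 to 0.080). COL1A1, the main collagen of scars, measured 7.07, 6.84, 6.9 and 5 against 7.56, 5.66, 6.03, 10.4 and 6.81 and differed by 0.16 ± 0.20 (limma adjusted p 0.73).

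Other matrix genes were not called by this test. Of 16 elastic fibre genes none was called by limma, with 1 higher and 6 lower at an unadjusted p under 0.05. Over all 53877 probes 9885 passed that unadjusted threshold, in either direction. Of 32 proteoglycans and matricellular genes none was called either (4 higher and 4 lower at that unadjusted p), nor of 11 laminins (1 and 1). FBLN5, fibulin 5 of elastic fibres, measured 35.2, 66.9, 45.5 and 65.9 against 6.63, 35.8, 19.8, 6.91 and 15.3, a difference of -1.90 ± 0.48 with an adjusted p of 0.0533 that became 0.018 without medium replicate 2. In 21 of 25 alternative settings FBLN5 stayed uncalled. SPARCL1, a matricellular protein of quiet vessels, differed by -2.11 ± 0.60 (adjusted p 0.0825, and 0.025 without medium replicate 2), and stayed uncalled in 23 of 25 settings. POSTN, periostin, a matricellular protein of remodelling tissue, lay on the other side with 30.0, 37.7, 25.7 and 54.9 against 172, 109.6, 48.7, 52.3 and 112 and 1.31 ± 0.39 (adjusted p 0.0931). LAMB1, a laminin beta chain, differed by 2.23 ± 0.60 (adjusted p 0.0692), with no overlap between the groups.

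In the TGF-beta and BMP pathway 4 of 35 genes were called lower and none higher. TGFB2, a TGF-beta ligand, measured 56.6, 53.6, 70.5 and 70.0 in small and 28.4, 26.7, 39.6, 28.2 and 32.4 in medium plaque arteries and fell by 1.02 ± 0.21 (limma adjusted p 0.0219). FST, follistatin, which binds activins and BMPs, measured 44, 26.4, 23.8 and 33.2 against 4.91, 7.03, 14.2, 12.7 and 8.3 and fell by 1.82 ± 0.34. A dimmer FST probe gave -1.39 and was not called. SMAD4, the shared partner of the signalling SMADs, measured 20.5, 15.5, 12.4 and 14.1 against 6.26, 8.97, 9.75, 8.54 and 8.33 and fell by 0.89 ± 0.19, while its other probe gave 0.18. ID1, a BMP target that blocks differentiation factors, was dim, with 1.5, 0.846, 0.704 and 0.744 against 0.164, 0.156, 0.396, 0.31 and 0.467, and fell by 1.74 ± 0.36. Another ID1 probe, dimmer still, gave -1.06 and was not called. Without both animals of distant identity number 1 of the 35 was called lower, and 2 were called higher. The count called lower was 1 without medium replicate 1 or 4 and 2 without small replicate 1 or 2. Without medium replicates 1 or 4 the calls of TGFB2, SMAD4 and ID1 were lost (adjusted p 0.050 to 0.062). Without small replicates 1 or 2 those of SMAD4 and ID1 were lost (0.057 to 0.070), as was that of SMAD4 without medium replicate 5 (0.058) and that of TGFB2 without small replicate 4 (0.052). The FST call was lost without both animals of distant identity number (0.073).

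Of 28 Wnt genes 1 was called higher and 2 lower. NKD1, an inhibitor of Wnt signalling that Wnt itself induces, measured 1.89, 1.66, 2.49 and 1.91 against 0.918, 1.06, 1.09, 0.895 and 0.83 and fell by 1.05 ± 0.16 (limma adjusted p 0.00577), with 2 dimmer probes at -0.47 and -0.34 that were not called. LRP5, a Wnt co-receptor, fell by 1.39 ± 0.33 (limma adjusted p 0.0444), and RSPO3, a secreted enhancer of Wnt signalling, rose by 0.99 ± 0.22 on a dim probe, from 0.241, 0.385, 0.26 and 0.286 to 0.446, 0.501, 0.61, 0.802 and 0.555. The LRP5 call was lost without small replicates 1 or 3 or medium replicates 1, 2, 4 or 5 (0.054 to 0.097). The RSPO3 call was lost without small replicates 1, 3 or 4 or medium replicates 3, 4 or 5 (0.062 to 0.076). The Wnt list held 1 lower and 0 higher without both animals of distant identity number, with adjusted p of 0.076 for LRP5 and 0.11 for RSPO3. None of 29 growth factors and their receptors was called by limma, with 5 lower and 0 higher at an unadjusted p under 0.05.

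Nuclear hormone receptors and their partners held the highest share of falls among the functional lists, with 5 of 18 called lower and 3 higher. PGR, the progesterone receptor, measured 65.6, 47.2, 44.4 and 48.9 in small, 11.7, 22, 21.6, 10.8 and 13 in medium and 17.4, 41.6 and 14.5 in large plaque arteries. PGR fell by 1.76 ± 0.33 (limma adjusted p 0.0145), kept its call without each animal in turn but not without both animals of distant identity number (0.068), and a second probe fell by 0.97 ± 0.20 while another gave -1.29 without being called. ESR1, the alpha oestrogen receptor, measured 42.9, 53.4, 32.3 and 46.6 against 13.4, 24, 22.1, 9.93 and 23.1, with medium replicate 4 lowest, and fell by 1.30 ± 0.28 (limma adjusted p 0.026). THRA, the alpha thyroid hormone receptor, fell by 1.34 ± 0.29, and CRYM, which binds thyroid hormone in the cytosol, measured 31.9, 38.5, 32.6 and 32.7 against 2.78, 19.4, 14.5, 4.01 and 4.47 and fell by 2.33 ± 0.55. NR3C2, the mineralocorticoid receptor, was chosen after its values were seen, with 30.9, 34.9, 19.9 and 40.6 against 6.63, 19.5, 16, 6.81 and 9.55 and a fall by 1.53 ± 0.34.

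In the other direction RARG, a retinoic acid receptor, measured 1.72, 2.06, 2.07 and 2.16 in small and 4.02, 3.29, 5.24, 6.46 and 4.6 in medium plaque arteries and rose by 1.21 ± 0.25. HSD11B1, the enzyme that regenerates active glucocorticoid, was chosen after its values were seen and rose by 1.62 ± 0.39 (limma adjusted p 0.0444), a call lost without any animal except medium replicate 3 (0.052 to 0.095). NRIP1, a corepressor of nuclear receptors chosen after its values were seen, measured 2.84, 2, 1.35 and 1.38 against 5.92, 3.96, 3.6, 3.98 and 3.35 and rose by 1.17 ± 0.26, a call lost without any animal except small replicate 1 or medium replicate 3 (0.052 to 0.078). Of the hormone list without both animals of distant identity number, 1 was called lower and none higher. The count called lower was 1 without medium replicate 1 or small replicate 1, 2 without medium replicates 4 or 5 or small replicate 2, and 3 without small replicate 3. The count called higher was 0 without medium replicates 4 or 5 or small replicate 2, and 1 without any other animal except medium replicate 3. The calls of ESR1 (0.054 to 0.078), THRA (0.064 to 0.070), CRYM (0.072 to 0.099), NR3C2 (0.068 to 0.088) and RARG (0.051 to 0.058) were each lost without small replicate 1, and all but that of THRA without small replicate 2. Those of ESR1, THRA, CRYM and NR3C2 were lost without medium replicate 1. Those of THRA, CRYM, NR3C2 and RARG were lost without medium replicate 4 or 5. Without small replicate 3 the calls of THRA and CRYM were lost, and without small replicate 4 those of ESR1, CRYM and NR3C2.

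**Figure D3:**
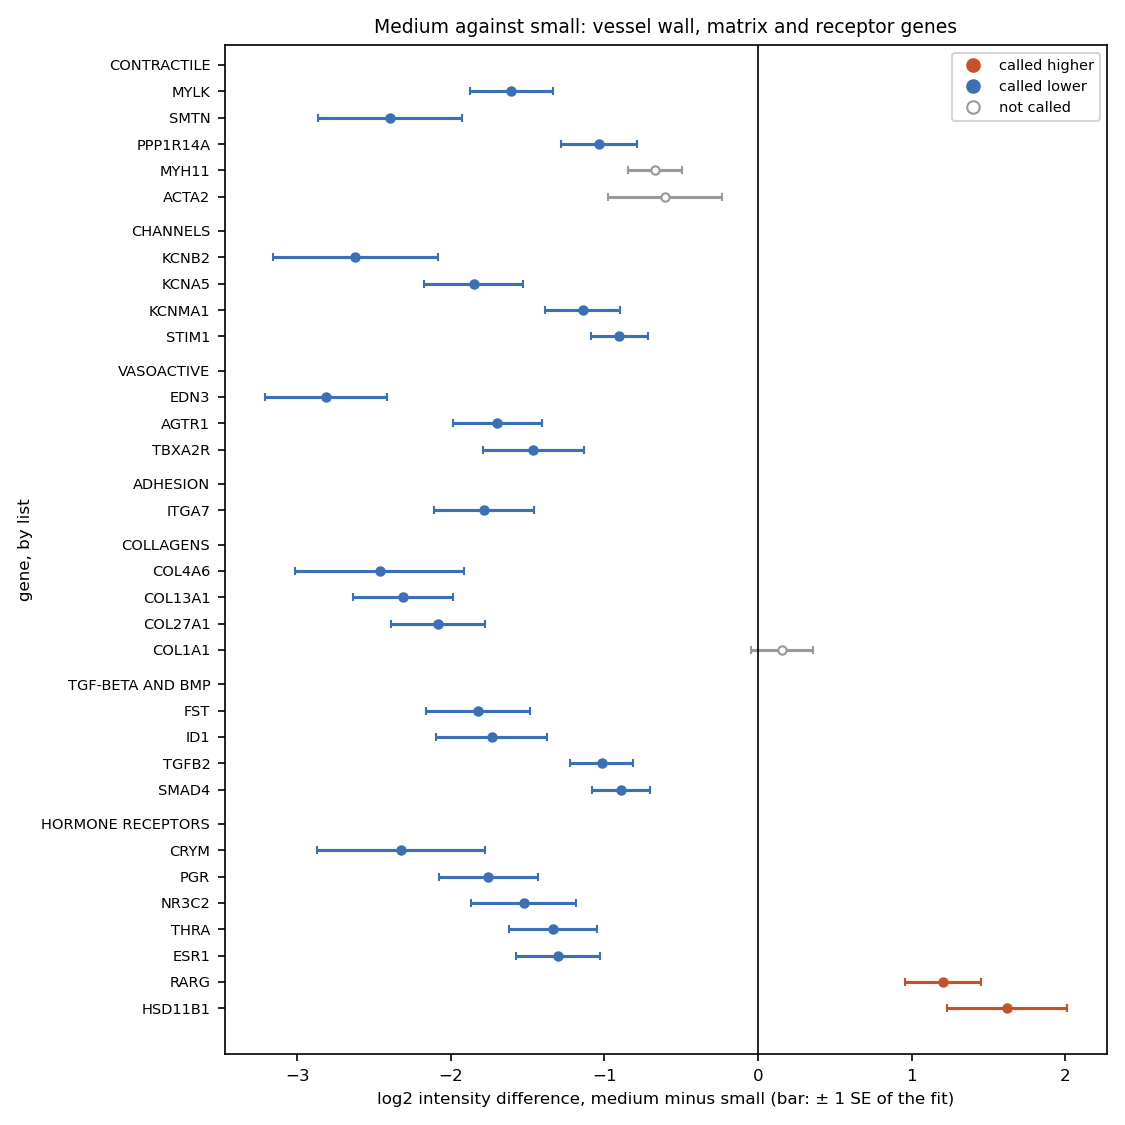
Log2 intensity difference, medium minus small (n = 5 and 4), with bars of 1 SE, for genes of the vessel wall, matrix and receptor lists; filled points passed the limma test and open points did not. Most lie to the left of 0, from EDN3 at -2.81 to MYH11 and ACTA2, which did not pass. RARG and HSD11B1 lie to the right, as does COL1A1, which did not pass either.

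Lysosomal genes made up the largest block of rises beyond the cell type markers, with 13 of 30 measured hydrolases and membrane proteins called higher, none lower and a median of 1.13. Without small replicate 2 the count was 7, and without both animals of distant identity number 9. CTSL, the protease cathepsin L, was bright in every artery, with 74.8, 68.3, 52.6 and 80.1 in small, 386, 283, 230.2, 416 and 299 in medium and 215, 237 and 341 in large plaque arteries. Every medium value of CTSL lay far above the highest small one, and it rose by 2.21 ± 0.22 (limma adjusted p 0.000424). CTSS, cathepsin S, an elastin-degrading protease of antigen-presenting cells, measured 2.07, 0.688, 1.32 and 0.968 against 53.5, 18.9, 12.6, 14.3 and 10.8 and rose by 3.96 ± 0.48. Medium replicate 1, with a plaque of 0.448 mm2, was far above the rest, and a dimmer CTSS probe at 0.51 was not called. CTSC, which activates granule proteases, rose by 3.31 ± 0.35, with a dimmer probe at 0.11 that was not called. ASAH1, acid ceramidase, measured 1.18, 0.92, 0.857 and 2.09 against 35.5, 16.7, 14.1, 16.4 and 8.38 and rose by 3.78 ± 0.41. LAMP1, an abundant protein of the lysosomal membrane, rose by 3.83 ± 0.78 (limma adjusted p 0.0218), a call lost without small replicate 1 (0.052) or 2 (0.065).

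The vacuolar proton pump, which acidifies lysosomes, was called higher in 4 of 17 genes and lower in none, with a median of 0.56. ATP6V1B2, a subunit of the ATP-splitting part, measured 3.2, 2.04, 2.33 and 2.99 in small and 16.2, 11.4, 10.2, 20.7 and 12.2 in medium plaque arteries and rose by 2.40 ± 0.26 (limma adjusted p 0.000557). ATP6V0D1, a subunit that links the membrane and cytosolic parts, rose by 2.18 ± 0.40, and ATP6AP1, an accessory subunit, by 1.39 ± 0.26. ATP6V1D, a subunit of the rotor stalk, rose by 2.20 ± 0.51 (limma adjusted p 0.0379), a call lost without any animal except small replicate 4 or medium replicate 3 (0.051 to 0.088). Without small replicate 2 the count of the pump was 2 and the adjusted p of ATP6AP1 0.052, and without both animals of distant identity number they were 3 and 0.082. The macrophage list moved with both groups, and its part was not tested.

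Of 26 glycolysis and hypoxia genes 6 were called higher and none lower, with a median of 0.55. SLC2A5, the fructose transporter GLUT5, measured 2.08, 1.81, 2.76 and 2.06 in small and 26, 11.6, 9.58, 27.4 and 13.1 in medium plaque arteries and rose by 2.89 ± 0.31 (limma adjusted p 0.000629). HK3, a hexokinase of myeloid cells, measured 0.987, 0.78, 0.433 and 0.342 against 5.15, 1.91, 1.32, 5.26 and 2.6 and rose by 2.28 ± 0.44 (0.079 without both animals of distant identity number). CA12, a carbonic anhydrase induced by hypoxia, rose by 2.23 ± 0.42 (0.051 without small replicate 2, 0.061 without both animals of distant identity number), with 2 other probes at 0.00 and 0.31 that were not called. NDRG1, a stress gene induced by hypoxia, was even across the small arteries (5.18, 5.19, 5.45 and 5.46) and higher in each medium one (11.5, 8.87, 10.4, 14.9 and 9.94), and rose by 1.04 ± 0.18. The glycolytic enzymes ENO1 and LDHA, chosen after their values were seen, rose by 1.06 ± 0.25 and 1.39 ± 0.33. The ENO1 call was lost without any animal except small replicates 1 or 3 (0.056 to 0.11), and the LDHA call without any except small replicate 1 or medium replicate 3 (0.050 to 0.099). Without small replicate 2, as without both animals of distant identity number, 3 of the 26 were called.

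Other metabolic lists held 1 call or none each. Of 23 respiratory chain genes none was called by limma (2 higher and 0 lower at an unadjusted p under 0.05), with a median of -0.03, and COX4I1, a subunit of cytochrome oxidase, gave 0.86 ± 0.23 (adjusted p 0.0669, and 0.028 without small replicate 1). In 22 of 25 alternative settings COX4I1 stayed uncalled. Of 17 genes of cholesterol synthesis 1 was called, SREBF1, a transcription factor of lipid synthesis. SREBF1 measured 12, 4.57, 4.35 and 5.07 against 24, 13.6, 19.7, 21.7 and 17.9 and rose by 1.69 ± 0.32, a call lost without small replicate 2 (0.051) or both animals of distant identity number (0.071). Of 21 genes of fatty acid oxidation 1 was called higher, HADHA, a subunit of the mitochondrial trifunctional protein, at 1.62 ± 0.37. A dimmer HADHA probe was called in the opposite direction at -0.83 ± 0.18, so the direction of HADHA is uncertain. The brighter probe also lost its call without any animal except medium replicates 1 or 3 (0.050 to 0.088), and without both animals of distant identity number 2 of the 21 were called higher.

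Antioxidant and metallothionein genes were called higher in 5 of 19 cases and lower in none, with a median of 0.55, and higher in 4 without both animals of distant identity number. SOD2, the mitochondrial superoxide dismutase, measured 22.1, 6.18, 4.74 and 10.2 in small, 231, 138, 100.4, 160.3 and 121 in medium and 133, 116 and 132 in large plaque arteries. Small replicate 1, with the largest plaque of its group, had the highest small value, and SOD2 rose by 4.00 ± 0.39 (limma adjusted p 0.000387), while a dimmer probe gave -0.27. GPX1, the cytosolic glutathione peroxidase, measured 56.5, 20.8, 42.8 and 24.2 against 184, 137, 130.2, 169 and 128 and rose by 2.15 ± 0.27. HMOX1, the haem-degrading oxygenase, measured 0.622, 0.48, 0.546 and 0.418 against 2.9, 2.01, 1.94, 1.62 and 1.88 and rose by 1.99 ± 0.23, and GPX3, the secreted peroxidase, rose by 1.74 ± 0.22. MT1G, a metal-binding metallothionein chosen after its values were seen, rose by 1.18 ± 0.26, a call lost without any animal except small replicate 3 or medium replicates 2 or 3 (0.053 to 0.092).

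Stress of the endoplasmic reticulum and heat shock proteins gave no limma calls, in 21 and 16 genes. At an unadjusted p under 0.05 the endoplasmic reticulum list held 5 higher and 1 lower, and the heat shock list 0 higher and 7 lower. HSPB8, a small heat shock protein of muscle, had groups apart below and -0.87 ± 0.23 with an adjusted p of 0.0609. Immediate early genes were called higher in 2 of 24 cases and lower in 1, and in 1 each without both animals of distant identity number. KLF6, a zinc finger factor of injury, rose by 1.75 ± 0.34 (0.054 without small replicate 2), and IER3, a survival gene induced by NF-kappaB, by 1.04 ± 0.24 (limma adjusted p 0.0371). A dimmer KLF6 probe gave 0.15 and was not called. The IER3 call was lost without any animal except small replicate 1 or medium replicate 2 (0.051 to 0.10). NR4A1, an orphan nuclear receptor, fell by 1.02 ± 0.20, with 8.2, 5.39, 9.24 and 5.26 against 2.81, 3.67, 3.67, 3.52 and 3.21. A dimmer NR4A1 probe gave 0.09 and was not called. Of 20 genes of apoptosis BID, a death-promoting BCL2 relative, rose by 1.78 ± 0.27, from 0.52, 0.179, 0.285 and 0.236 to 1.26, 0.803, 0.881, 1.06 and 0.884. CASP4, an inflammatory caspase, rose by 3.02 ± 0.48 on its brighter probe and was called lower on a dimmer one (-0.85 ± 0.21), so its direction is uncertain.

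Cell cycle genes were called higher in 7 of 30 cases and lower in none, with a median of 0.43, and 7 were also called without both animals of distant identity number. UBE2C, the ubiquitin carrier of the mitotic exit machinery, measured 1.39, 0.822, 0.664 and 1.33 in small, 4.74, 4.19, 4.26, 7.45 and 5.13 in medium and 1.63, 2.53 and 3.03 in large plaque arteries. The large group lay between the other groups, and UBE2C rose by 2.33 ± 0.28 (limma adjusted p 0.00125). BIRC5, survivin of the chromosomal passenger complex, measured 1.16, 0.72, 0.88 and 1.1 against 2.53, 2.3, 3.2, 2.94 and 2.4 and rose by 1.48 ± 0.21. TYMS, the thymidylate synthase of DNA synthesis, measured 2.66, 1.7, 1.69 and 3.05 against 6.88, 5.45, 4.95, 7.32 and 6.5 and rose by 1.48 ± 0.21, and CCNA2, cyclin A2, rose by 1.06 ± 0.19. MKI67, the proliferation marker Ki-67, did not follow, with 18.5, 14, 19 and 11.9 against 12.3, 12.7, 13.2, 14.1 and 15.4 and -0.20 ± 0.17 (limma adjusted p 0.571).

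No gene of the ribosome or of bone was called, and the clock list held 1 call in each direction (6.25% each). None of 17 cytosolic ribosomal protein genes was called by limma, with 3 lower and 0 higher at an unadjusted p under 0.05, and none of 19 bone and cartilage genes (2 lower and 1 higher). Of 16 clock genes BHLHE41, a repressor of the clock, rose by 1.85 ± 0.39 and CIART, another repressor, fell by 0.95 ± 0.23. The clock list held 1 higher and 5 lower at that unadjusted p, with a median of -0.26. Its sum was 77.1 to 96.8 in small and 58.6 to 72.3 in medium plaque arteries. The BHLHE41 call was lost without small replicates 2, 3 or 4 or medium replicate 4 (0.053 to 0.069), and the CIART call without any animal except small replicate 4 or medium replicate 3 (0.051 to 0.090) and without both animals of distant identity number (0.083).

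Some members of the immune signalling lists rose. Of 37 chemokines, interleukins and their receptors 6 were called higher (5 without both animals of distant identity number) and none lower. CXCL8, the neutrophil attractant interleukin 8, measured 2.2, 0.889, 1 and 2.97 in small and 29.2, 16.7, 13, 33.2 and 23.4 in medium plaque arteries and rose by 3.81 ± 0.39 (limma adjusted p 0.00048). CCL2, the monocyte attractant, measured 1.93, 1.58, 1.3 and 1.24 against 9.2, 6.4, 5.33, 9.43 and 6.51 and rose by 2.27 ± 0.22. The receptor CXCR4 rose by 3.56 ± 0.45, with medium replicate 1 (plaque of 0.448 mm2) highest at 49.9, and CCR1, a receptor for inflammatory chemokines, by 3.05 ± 0.49. In the NF-kappaB and TNF pathway 3 of 25 were called higher and none lower, with a median of 0.05. TNFSF13B, the B cell survival factor BAFF, measured 14.6, 9.45, 5.68 and 16.5 against 44.7, 39, 43.3, 51.2 and 56.8 and rose by 2.13 ± 0.29 on one probe and 2.08 ± 0.32 on the other. IKBKE, a kinase of innate signalling, rose by 1.75 ± 0.26, and NFKBIE, an inhibitor that holds NF-kappaB in the cytosol, by 1.39 ± 0.21.

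Interferon response genes held 2 calls in 26, both higher. IFI30, a thiol reductase of antigen processing, measured 12.9, 4.97, 7.83 and 11.1 in small, 178, 98.6, 136, 206 and 122 in medium and 162, 84.7 and 176 in large plaque arteries and rose by 4.05 ± 0.33 (limma adjusted p 0.000138). IRF8, a transcription factor of monocytes and dendritic cells, was even among the small arteries (3.93, 2.87, 3.87 and 3.8) and rose by 2.35 ± 0.24, with a dimmer probe at 0.35 that was not called. Of 14 genes of class I presentation HLA-F, a class I molecule, rose by 1.33 ± 0.28, and PSMB10, an immunoproteasome subunit, by 1.06 ± 0.18, while a dimmer PSMB10 probe gave -0.23. A dimmer HLA-F probe gave 0.24 and was not called. The HLA-F call was lost without small replicates 2 or 3 or medium replicate 5 (0.053 to 0.075), and without small replicate 1 the list held 4 calls and without both animals of distant identity number 1. HLA genes are close in sequence, and a probe can bind transcripts of more than one.

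Coagulation and plasminogen genes were called higher in 4 of 17 cases and lower in none, and higher in 3 without both animals of distant identity number. PLAU, urokinase, which turns plasminogen into plasmin, measured 8.18, 7.9, 9.79 and 6.83 in small and 51.2, 28.8, 38.9, 62.5 and 44.7 in medium plaque arteries. Small arteries differed little from each other, and PLAU rose by 2.43 ± 0.23 (limma adjusted p 0.00036). PLAUR, the urokinase receptor, measured 1.29, 0.854, 0.8 and 1.06 against 5.88, 3.18, 1.87, 3.28 and 2.83 and rose by 1.70 ± 0.29. PROS1, the anticoagulant protein S, measured 1.29, 0.904, 0.486 and 0.842 against 11.3, 4.18, 3.67, 3.71 and 2.49 and rose by 2.40 ± 0.40. SERPINE2, an inhibitor of thrombin and urokinase, rose by 0.94 ± 0.22 (limma adjusted p 0.0403), a call lost without any one of the 9 animals (0.050 to 0.092). A dimmer SERPINE2 probe gave -0.32 and was not called. Matrix proteases and their inhibitors were called in both directions, 4 higher and 4 lower of 26. MMP19, a metalloprotease of macrophages and vessels, rose by 2.29 ± 0.33, from 3.8, 2.07, 3.1 and 2.17 to 14.9, 7.65, 9.44, 21.4 and 17.1, with a dimmer probe at -0.10. The others were chosen after their values were seen, apart from ADAM33 and ADAMDEC1 above. ADAM9, a membrane-bound sheddase, rose by 1.41 ± 0.28 (0.062 without small replicate 2), and ADAM17, the enzyme that sheds TNF, measured 3.51, 3.18, 1.36 and 3.21 against 15, 9.02, 4.44, 6.48 and 8.05 and rose by 1.59 ± 0.36. ADAMTS9, a protease of proteoglycans, measured 17, 27.5, 48 and 34.4 against 5.52, 13.6, 14.5, 7.08 and 8.59 and fell by 1.69 ± 0.36. CST3, the cathepsin inhibitor cystatin C, fell by 1.58 ± 0.32, and TIMP3, a metalloprotease inhibitor held in the matrix, by 0.70 ± 0.17. The ADAM17, ADAMTS9, CST3 and TIMP3 calls were each lost without medium replicates 1, 4 or 5 or small replicate 2, and all but that of CST3 without small replicate 3 (0.051 to 0.12). The ADAM17 call was also lost without medium replicate 2 or small replicate 4, that of ADAMTS9 without small replicate 4, and that of TIMP3 without medium replicate 3 or small replicate 1. Without small replicate 2 the list held 2 higher and 1 lower, without medium replicates 1, 4 or 5 1 lower, and without small replicate 3 2 lower. Without both animals of distant identity number it held 3 higher and 1 lower.

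**Figure D4:**
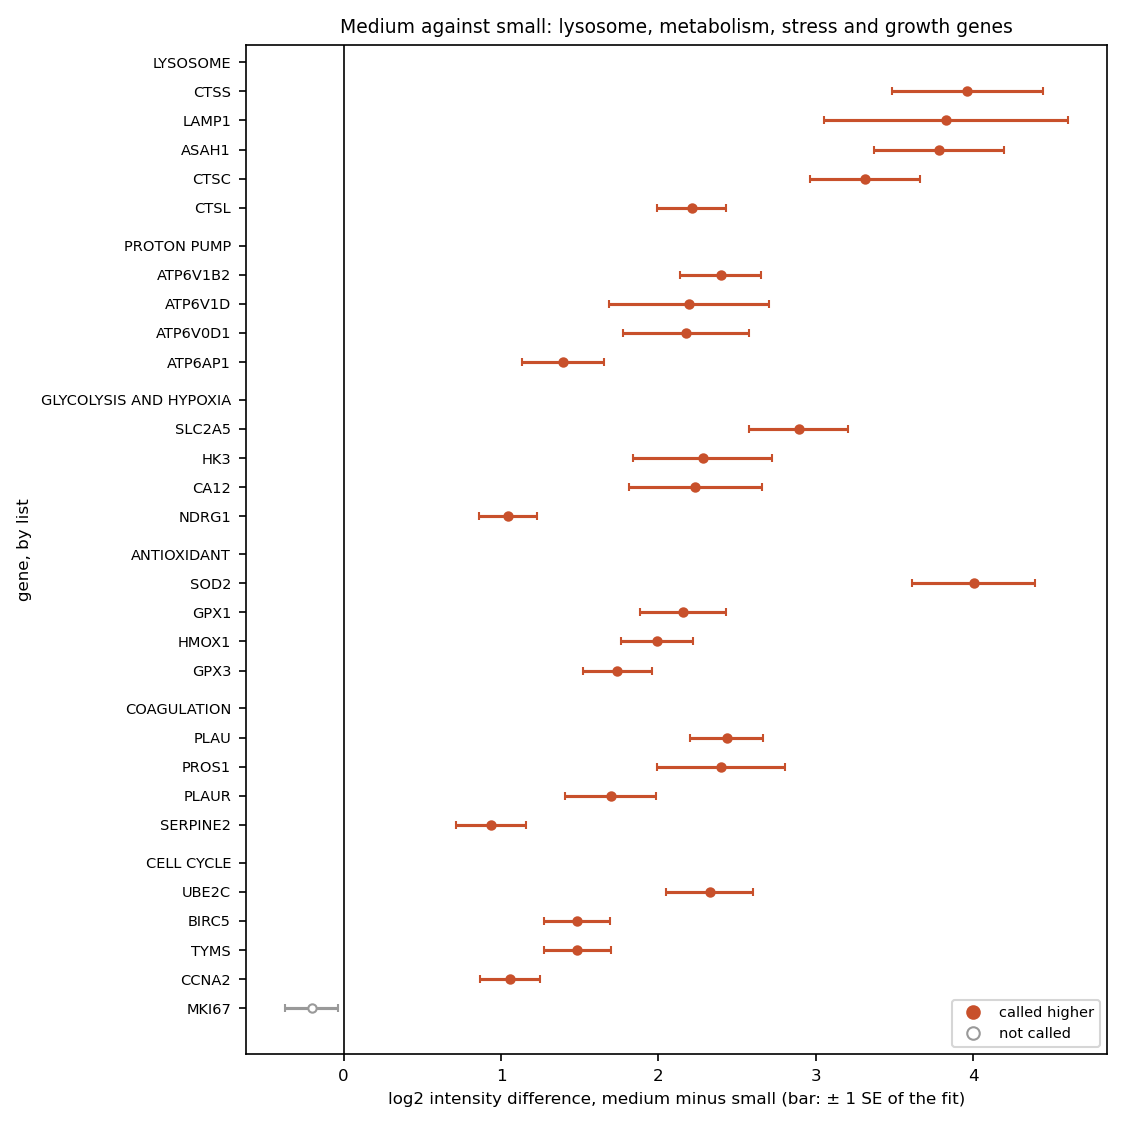
Log2 intensity difference, medium minus small (n = 5 and 4), with bars of 1 SE, for genes of the lysosome, proton pump, glycolysis, antioxidant, coagulation and cell cycle lists; filled points passed the limma test and open points did not. Every filled point lies to the right of 0, from SERPINE2 at 0.94 to SOD2 at 4.00, and MKI67 is the open point at -0.20.

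Markers of the other cell types an artery sample can hold moved unequally. Of 16 T and NK cell markers 2 were called higher, the protease GZMA of cytotoxic cells at 2.53 ± 0.45 and the costimulatory receptor CD27 at 1.66 ± 0.38. The CD27 call was lost without small replicates 2, 3 or 4 or medium replicates 1, 2, 3 or 5 (0.054 to 0.082), and 6 markers were called without small replicate 1. Neither GZMA nor CD27 nor any other member was called without both animals of distant identity number (0.053 and 0.12). The summed level of the list was 22.4 to 50.0 in small and 38.7 to 79.5 in medium plaque arteries, with at most 1 member at the floor in an animal. Of 12 B and plasma cell markers FCRL5, a receptor of these cells, rose by 2.54 ± 0.47 from 0.368, 0.278, 0.253 and 0.207 to 0.736, 1.57, 2.13, 1.65 and 2.41, but without both animals of distant identity number its adjusted p was 0.077 and no member was called. None of 7 neutrophil, 6 mast cell and 7 red blood cell and platelet markers was called by limma, with 1 higher and 2 lower, 1 higher and 0 lower, and 0 higher and 1 lower at an unadjusted p under 0.05.

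Endothelial genes did not move together. Of 20 measured members ESAM, a junctional adhesion molecule, was called lower, with 182, 144, 121 and 139 against 37.8, 83.9, 80.3, 36.6 and 51.2 and a fall by 1.41 ± 0.28 (limma adjusted p 0.0199) that was lost without small replicates 1 (0.050) or 2 (0.053), and without both animals of distant identity number (0.080), where 1 other member was called higher. PECAM1 measured 26.4, 24, 30.3 and 21 against 24.5, 19.8, 24.2, 26.8 and 22.8 and differed by -0.10 ± 0.16, and VWF by -0.20 ± 0.15. A dim PECAM1 probe was called higher at 1.21 ± 0.24. The sum of the list was 200 to 266 in small and 107 to 157 in medium plaque arteries, but without ESAM, its brightest gene, it was 67.8 to 83.6 and 65.3 to 77.8. None of 14 adventitial fibroblast markers was called by limma (1 higher and 6 lower at an unadjusted p under 0.05), although their sum was 181 to 318 in small and 63.0 to 138 in medium plaque arteries, and 44.4 to 72.4 and 18.1 to 38.8 without the brightest, SCARA5. TNMD, tenomodulin, differed by -3.46 ± 0.86 (adjusted p 0.0523, and 0.023 without medium replicate 2), while PDGFRA, a receptor of fibroblasts, differed by 0.44 ± 0.19. In 18 of 25 alternative settings TNMD stayed uncalled. Without medium replicate 2, 3 of these 14 were called lower. The part of these cells in the falls of wall genes was not tested. Of 11 skeletal muscle genes TNNT3, a troponin, was called lower at -0.68 ± 0.16, a call lost without any animal except small replicate 4 (0.052 to 0.11) and without both animals of distant identity number (0.093).

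**Figure D5:**
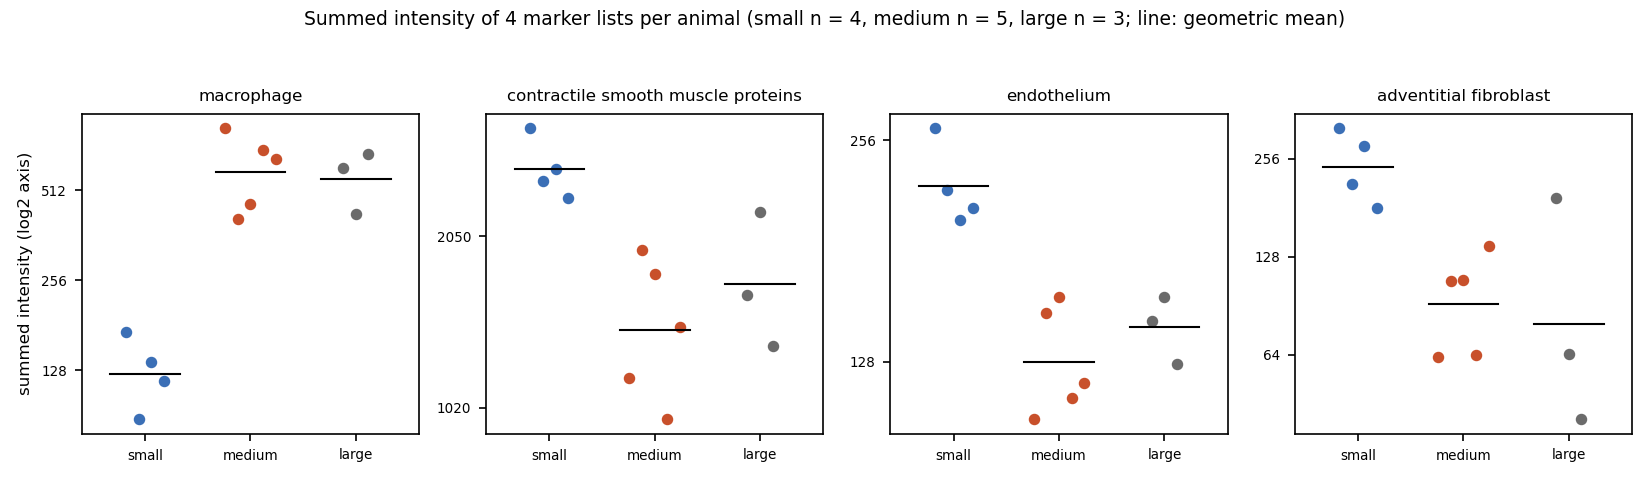
Summed intensity (log2 axis) of the macrophage, contractile smooth muscle, endothelial and adventitial fibroblast lists in each animal, with lines at the geometric means of the 4 small, 5 medium and 3 large plaque arteries. The medium points lie above all small points for the macrophage list and below them for the other lists, and the endothelial sum is led by ESAM.

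Between medium and large plaque arteries no probe was called by limma, and the lowest adjusted p was 0.0628. Of all 53877 probes 2713 had an unadjusted p under 0.05. Probes without any difference pass that threshold at a rate of 0.05, which is close to this count. The genes called against small that lay farthest from large are given as values, since both comparisons share the medium animals. SPP1, osteopontin, measured 4.91, 2.43, 0.439, 1.74 and 2.14 in medium and 0.21, 1.21 and 0.942 in large plaque arteries, with 0.219, 0.246, 0.21 and 0.0983 in small, and its call against small was lost without small replicate 4 (0.051) or both animals of distant identity number (0.096). PCLAF, a clamp-binding factor of DNA replication, was dim and measured 0.654, 0.674, 0.491, 0.905 and 0.523 in medium against 0.141, 0.36 and 0.231 in large and 0.208, 0.141, 0.133 and 0.277 in small. ZNF750, a zinc finger factor of epithelium, measured 19.3, 13, 18.6, 19.3 and 19 in medium, 1.97, 12.9 and 11 in large and 5.62, 3.46, 4.36 and 2.42 in small, and its call was lost without small replicates 2 or 4 or medium replicates 1, 4 or 5 (0.057 to 0.069). ADAM33, SMTN and LRP5 lay lower in medium than in large, by 1.63, 1.42 and 1.27 log2 units, with adjusted p of 0.905, 0.953 and 0.818.

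The genes that parted the groups did not differ evenly among the medium animals. Medium replicate 1 was the highest medium animal in 312 of the 651 called higher genes (47.9%) and medium replicate 4 in 242 (37.2%), against 22.4% and 28.3% of all genes. The same animals were the lowest medium ones in 126 (43.4%) and 111 (38.3%) of the 290 called lower genes, against 26.1% and 20.2% of all genes. Medium replicates 2 and 3, which had the smallest plaques of their group, were the highest medium animals in 102 (35.2%) and 154 (53.1%) of those 290, against 16.1% and 18.4% of all genes. The order of the medium animals did not follow plaque size throughout. Medium replicate 1, with a plaque of 0.448 mm2, was at these extremes more often than medium replicate 4, with 0.542 mm2. Medium replicate 5 had the second largest plaque of the group. Yet it was the highest medium animal in 9.06% of the called higher genes, against 14.7% of all genes. It was the lowest in 8.97% of the called lower genes, against 15.3%. Among the small arteries, replicate 1, with the largest plaque of its group, was highest in 275 (42.2%) of the called higher genes, against 29.8% of all genes. Replicate 4, which had no plaque, was highest in 205 (31.5%), against 22.5% of all genes. The calls used both groups of animals, so these orders within a group are a description.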

How the data were processed

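RNA of 12 iliac arteries was hybridised, 1 artery per array, to CodeLink arrays of human probes with a single dye, per the labels' protocols. The authors deposited linear intensities with each array's median close to 1 (1.00 to 1.01). Values below 0 show that background had been subtracted. Image software, scaling formula and detection flags: not given in the sources used here. Samples were grouped by the plaque size in their titles. Of 54359 probes, 53877 were tested, those measured in 2 or more animals per group. Intensities under the 5th percentile of positive values (0.111) were set to it (5.45% of values) and log2 was taken. Each probe was fitted with limma 3.58.1 in R 4.3.3 (lmFit, 3 group means over 12 arrays, eBayes), and two-sided p were adjusted by Benjamini-Hochberg with a threshold of 0.05. The fit was tested on simulated data. Gene symbols came from the platform annotation, which can be old, and 23267 tested probes had 1 symbol, 900 several and 29710 none here. A gene's value is that of its brightest single-symbol probe with a value on every array.

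Members and the 49 gene lists (977 of 1126 genes measured) were chosen with earlier results of these data known, so lists were not tested and are described by counts. Named were the 12 largest rises and falls whose groups did not overlap, outside the macrophage, foam cell and class II lists; up to 4 called members per list by smallest p, or otherwise the 2 of smallest p; a few fixed markers; and the called genes farthest from large. Others are marked as chosen after their values were seen. The alternatives changed the scaling between arrays, the floor, which probes or arrays were used, how variances and array quality were modelled, the threshold and the blocks, and left out each animal in turn. Same-numbered small and medium replicates did not deviate together (r of -0.16 to 0.22 over genes), so numbers were not used as pairs.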

Additional observations from a re-analysis of the deposited data

Results flagged for a closer look

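In 20 of 310 gene and group combinations examined, 1 animal stood apart from the rest of its group by Dixon's test at the 95% level, which chance passes in about 1 of 20 groups. The values are intensities. Small replicate 2 was lowest for CASP4 (0.207, the nearest other small animal 0.657), IRF8 (2.87, nearest 3.8) and PTPN6 (1.31, nearest 2.67), and highest for CRYM (38.5, nearest 32.7). Small replicate 4 was highest for ADAMDEC1 (1.86, nearest 0.872), COL4A6 (40.4, nearest 27.7) and KCNAB1 (1.66, nearest 1.1), and lowest for COL1A1 (5, nearest 6.84), TNNT3 (0.861, nearest 1.05) and TIMP3 (6.03, nearest 8.05). Small replicate 3 was lowest for SPARCL1 (118, nearest 363), CALD1, the actin-binding caldesmon (216, nearest 428), TLR6 (1.34, nearest 2.65), ADAM17 (1.36, nearest 3.18) and SPC25 (0.426, nearest 1.3). Small replicate 1, with the largest plaque of the small group, was highest for SREBF1 (12, nearest 5.07). Medium replicate 2, with the smallest plaque of its group, was lowest for MLPH (25.8, nearest 57.9) and ZNF750 (13, nearest 18.6). Medium replicate 1 was highest for CXCR4 (49.9, nearest 21.1) and LYZ (248, nearest 78.2).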

How the results depend on the processing

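Of 1062 probes higher and 631 lower, a threshold of 0.01 left 372 and 52, and a test against a minimum difference of 1 log2 unit (limma's treat) 81 and 1. Without both animals of distant identity number 605 and 168 were called, with the small and medium arrays alone 828 and 366, and without dim probes 1544 and 1198. Leaving out each animal gave 599 to 1003 higher and 238 to 634 lower. Quantile normalization, median centring, other floors, complete probes, trended or robust variances, array weights and an identity number block, the last chosen after seeing the data, kept both counts within 1.5 times. The share called higher was 62.7%, against 68.6% with quantile normalization, which moved the median of all probes from -0.09 to -0.04. With the replicate number as a replicate block, 685 and 181 were called, but the labels tie the numbers to no shared animal, litter or batch and same-numbered samples did not deviate together (r 0.07, 0.02, 0.22 and -0.16 for replicates 1 to 4). Signs turned with the probe of smallest p for HADHA (-0.83) and PECAM1 (1.21), with quantile normalization for PECAM1 (0.061), and with array weights for SPC24 (-0.073). The cause was not tested. Of 130 called genes named, 76 kept the call without each of the 9 animals in turn. Lists with no call in a direction gained at most 1 when 1 animal was left out, except adventitial fibroblast genes lower (3 without medium replicate 2) and TGF-beta genes higher (2 without small replicate 4). A planned search of promoters was not run. Precision is limited by 5 and 4 animals and by dim probes near 0.111.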

Other observations

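The genes below were chosen after their values were seen, so their counts are descriptions. Toll-like receptors, which sense microbial and damage signals, were called higher in 4 of 9 measured members, namely TLR1, TLR4, TLR6 and TLR8, and lower in none. TLR4, the receptor for endotoxin, measured 2.9, 1.03, 0.888 and 1.38 in small and 15.7, 5.61, 9.16, 11 and 9.25 in medium plaque arteries and rose by 2.80 ± 0.36. LY96, its partner MD-2, measured 0.71, 0.325, 0.547 and 0.706 against 4.8, 3.8, 2.59, 6.46 and 3.96 and rose by 2.92 ± 0.29. TLR1 rose by 2.92 ± 0.41 and TLR8 by 2.05 ± 0.25, and TLR6 by 1.42 ± 0.28, whose adjusted p was 0.050 without medium replicate 5 and 0.068 without both animals of distant identity number. Of 17 measured PLA2G phospholipase genes 3 were called higher and none lower. PLA2G7, the lipoprotein-associated phospholipase, measured 1.85, 0.977, 0.911 and 0.84 against 12.1, 12.8, 9.51, 35.3 and 3.28 and rose by 3.36 ± 0.66 (0.053 without small replicate 2), and PLA2G2D by 2.49 ± 0.35. PLA2G2A spread widely in medium plaque arteries, with 26.5, 17.4, 4.19, 2.83 and 58.4, and its rise of 3.66 ± 0.88 lost its call without small replicates 2, 3 or 4 or medium replicates 1, 2 or 5 (0.076 to 0.12) and without both animals of distant identity number (0.12).

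Of the 4 subunits of the NDC80 complex, which couples chromosomes to the spindle, 3 were called higher. SPC25 measured 1.55, 1.3, 0.426 and 1.58 in small, 10.4, 5.94, 5.7, 9.01 and 6.19 in medium and 3.03, 4.48 and 4.13 in large plaque arteries and rose by 2.74 ± 0.37, and NUF2 rose by 2.44 ± 0.32. NDC80 rose by 2.15 ± 0.46, a call lost without small replicates 1, 2 or 3 or medium replicate 4 (0.052 to 0.073), and SPC24, on a dim probe, differed by 0.20 ± 0.32.

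Some genes of actin cross-linking were called lower. Of 3 measured alpha-actinins 2 were called and 1 was not. ACTN1, of focal adhesions and stress fibres, fell by 1.36 ± 0.26, with 253, 161, 220.4 and 163 against 89.8, 93.1, 105, 50.2 and 58.9, and ACTN2, of muscle, by 1.89 ± 0.35 (0.059 and 0.058 without both animals of distant identity number). Of 6 measured PDLIM genes, which encode PDZ and LIM domain proteins, 2 were called lower and 4 were not called, with differences over the family from -1.86 to 0.89. PDLIM1 fell by 1.24 ± 0.27 and PDLIM7 by 1.86 ± 0.44. The calls of PDLIM1 and PDLIM7 were lost without small replicates 2, 3 or 4 or medium replicates 1, 4 or 5, and that of PDLIM7 without small replicate 1 (0.053 to 0.091), and both without both animals of distant identity number (0.092 and 0.10). P2RX1, the ATP-gated channel by which sympathetic nerves constrict arteries, was among the brightest falls, with 492, 386, 366 and 380.0 against 100.2, 141, 206, 54.9 and 94.7, and fell by 1.89 ± 0.35 (0.066 without both animals of distant identity number). KCNMB4, a beta subunit of the channel formed by KCNMA1, fell by 1.61 ± 0.30, while KCNMB1, the smooth muscle beta subunit, differed by -0.60 ± 0.21 (adjusted p 0.16).

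Probes of one gene often disagreed. Of 180 called higher genes with more than 1 probe, the other probes were all called the same way in 22 and some of them in 6, none was called in 148, of which all had the opposite sign in 61, and at least 1 was called the opposite way in 4 (AKAP5, CASP4, HADHA and SDCBP). Of 100 called lower genes the other probes were all called the same way in 5 and some in 3, none was called in 92, of which all had the opposite sign in 26, and no probe was called the opposite way. The position of these probes on the transcripts was not analysed here.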
